A study of Mus musculus with 12 samples.

Results

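The methionine cycle and one-carbon genes described here are 9 enzymes of mouse liver, Mat1a, Gnmt, Ahcy, Bhmt, Bhmt2, Cbs, Cth, Pemt and Shmt1, chosen by name from the 24062 genes of the count tables. All 9 passed the filter on low values, which left 12481 genes. Livers came from female C57BL/6J (B6) mice, an inbred strain, obtained at 6 weeks of age and acclimated for 2 weeks. All mice, controls included, received the control diet for 3 days before the experiment, with 15% of its kcal from fat, 65% from carbohydrate and 20% from protein. The control group (6 libraries, replicates 1 to 6) stayed on this diet, and the BIBB-515 group (6 libraries, replicates 6 to 11) received a matched diet that dosed BIBB-515, an inhibitor of the cholesterol synthesis enzyme lanosterol synthase (Lss), at 55 mg/kg body weight. The study had 11 mice per group. The comparison asked how hepatic transcripts differed between mice fed the inhibitor and mice fed the control diet.

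In the liver, methionine is converted to S-adenosylmethionine, which donates methyl groups to many acceptors and becomes S-adenosylhomocysteine and then homocysteine. Homocysteine is either methylated back to methionine, with betaine or a folate as the methyl donor, or passed through transsulfuration to cysteine. Serine feeds both arms, since it gives its carbon to folate and is joined to homocysteine in transsulfuration.

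Total gene counts were 22764819 to 27914647 in the control libraries and 24223939 to 31058370 in the BIBB-515 libraries. The 20 most abundant genes of each library held 27.7 to 29.8% of its counts in the control group and 23.6 to 25.2% in the BIBB-515 group. Hepatocyte markers summed to 138736 to 157862 CPM (counts scaled to library size, here adjusted by the trimmed mean of M-values, TMM) in the control livers and to 104283 to 119291 CPM in the BIBB-515 livers. Alb held most of these sums, with means of 120094 CPM (control) and 90923 CPM (BIBB-515). Markers were called at a false discovery rate (FDR) under 0.05 in edgeR's quasi-likelihood test, which 13.7% of all tested genes passed. Of those 6 hepatocyte markers Alb, Ttr and Fgb fell, Apoa1, Tat and Serpina1a were not called, and none rose. Pericentral markers summed to 5904 to 9823 CPM and 7173 to 8387 CPM, with 1 of 8 higher (Cyp1a2) and 3 lower (Glul, Slc1a2 and Rgn). Periportal markers summed to 8725 to 15336 CPM and 9456 to 11622 CPM, with 3 of 8 higher (Hal, Cyp2f2 and Hsd17b13) and 1 lower (Pck1). No tested marker of Kupffer cells (7), other leukocytes (5), endothelial cells (7) or bile duct cells (5) was called, and 2 of 7 stellate cell markers, Dcn and Lrat, fell. Adipocyte and proximal tubule markers stayed below 1 CPM in sum in every liver. The hemoglobin genes Hba-a1, Hba-a2, Hbb-bs and Hbb-bt were listed at 0. The erythroid marker Alas2 had means of 12.4 CPM (control) and 11.1 CPM (BIBB-515) and was not called. Whether the hemoglobin zeros come from the tissue or from the counting was not tested. Of the pancreatic markers, Cela1 fell from a mean of 14.0 to 9.48 CPM. The others, Prss1, Cpa1, Pnlip and Ctrb1, had means of at most 0.0234 CPM and were not tested. The part of these marker shifts in the results below was not tested, and in whole liver fewer cells of a type cannot be told apart from less RNA per cell. Lss itself ranged from 34.8 to 166 CPM in the control livers (median 68.0) and from 112 to 180 CPM with BIBB-515 (median 128). Its FDR was 0.0854 in edgeR's quasi-likelihood test, and this test of RNA does not measure inhibition of the enzyme.

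With BIBB-515, Cth, Bhmt and Gnmt rose and Cbs fell, by 1.36- to 1.49-fold upward and to 0.73 of the control level downward. Bhmt remakes methionine from homocysteine, Cbs commits homocysteine to transsulfuration, and Cth acts in the step after Cbs. Gnmt uses S-adenosylmethionine to methylate glycine. The other 5 genes, Mat1a, Ahcy, Bhmt2, Pemt and Shmt1, did not pass FDR under 0.05. Thus 4 of 9 genes, 44.4%, were called in edgeR's quasi-likelihood test, where 13.7% of all tested genes were called. The 9 genes were chosen with earlier results of these data known. The shares and medians given here therefore do not test them as a set. With 1 library left out, the number called was between 1 and 5. It was 1, Cbs alone, without control replicate 6, BIBB-515 replicate 6 or BIBB-515 replicate 11, and 2 without control replicate 4, BIBB-515 replicate 7 or BIBB-515 replicate 9. Of the 9, 3 were called higher, against 7.18% of all tested genes, and 1 lower, against 6.48%. In 1 gene, Cbs, the dietary groups did not overlap in TMM-adjusted CPM, and this held for 7.07% of all tested genes. The median log2 fold change was 0.15 over the 9 genes and -0.01 over all tested genes, with no test of that difference.

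**Figure D1:**
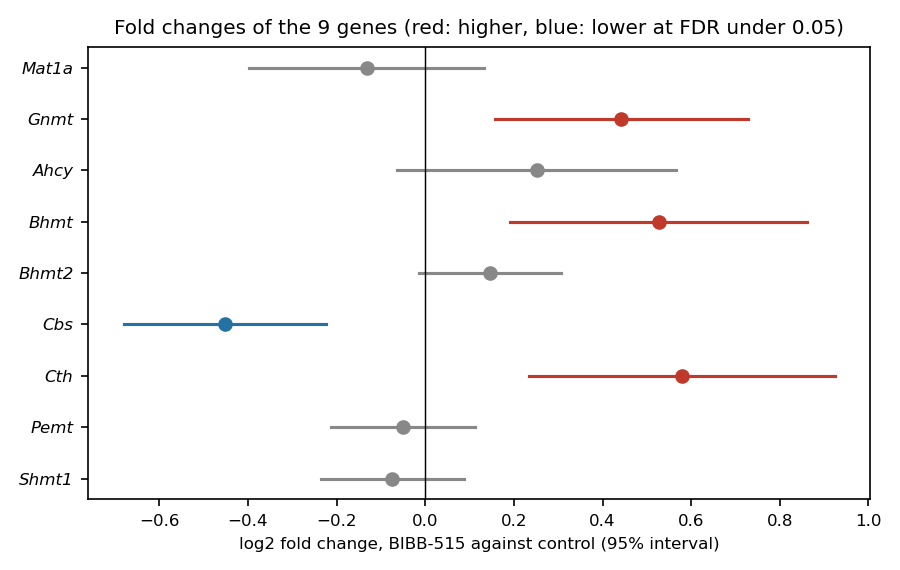
Points are log2 fold changes of the 9 genes, BIBB-515 against control (6 livers each), and lines are 95% intervals from edgeR's quasi-likelihood fit. The intervals of Gnmt, Bhmt and Cth lie above 0 and that of Cbs lies below 0, whereas those of the other 5 genes include 0.

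Promoters of the genes that were called are shown so that the sequence ahead of each RefSeq start can be read beside the gene's values. RefSeq promoters (GRCm38.p6, the same assembly as mm10) were matched for 7 of the 9 genes, not for Mat1a or Cth. The 250 bases before each start were searched on both strands for 5 motifs: AGGTCA (a nuclear receptor half-site), TGACNNNGC (the core of an antioxidant response element), CACGTG (an E-box), TATAAA and CACCCCAC (part of the sterol regulatory element of the low-density lipoprotein receptor gene). Sequences run 5′ to 3′ on the strand of the gene, which is the minus strand for all 3, and capitals mark every match. The windows are chr13:93637759-93638008 for Bhmt, chr17:46729166-46729415 for Gnmt and chr17:31637206-31637455 for Cbs.
Bhmt: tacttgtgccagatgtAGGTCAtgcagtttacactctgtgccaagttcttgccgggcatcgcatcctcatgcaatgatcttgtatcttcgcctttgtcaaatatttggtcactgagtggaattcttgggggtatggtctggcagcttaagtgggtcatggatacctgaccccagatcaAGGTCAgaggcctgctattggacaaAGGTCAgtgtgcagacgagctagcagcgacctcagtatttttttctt
Gnmt: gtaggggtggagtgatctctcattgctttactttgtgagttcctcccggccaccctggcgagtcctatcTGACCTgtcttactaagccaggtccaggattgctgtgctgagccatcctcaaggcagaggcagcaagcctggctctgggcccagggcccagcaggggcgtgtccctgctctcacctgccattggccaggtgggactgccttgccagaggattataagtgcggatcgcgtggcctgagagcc
Cbs: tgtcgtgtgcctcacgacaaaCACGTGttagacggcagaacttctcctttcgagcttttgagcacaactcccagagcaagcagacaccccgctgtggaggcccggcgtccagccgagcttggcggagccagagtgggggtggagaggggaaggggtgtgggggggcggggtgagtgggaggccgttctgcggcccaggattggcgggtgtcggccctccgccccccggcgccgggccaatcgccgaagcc
The Bhmt window holds AGGTCA 3 times, with first bases at -234, -72 and -47 from the start, all in the direction of the gene. In GENCODE the first exon of Bhmt (chr13:93637464-93637961) reaches into this window. The matches at -72 and -47 lie within that exon. The Gnmt window holds the same motif once at -181, read on the opposite strand, and the Ahcy window holds it once at -205, also on the opposite strand. AGGTCA occurs in 14.0% of all 32851 RefSeq promoter windows of this length, and 3 or more times in 0.131%, a share computed after the Bhmt count was seen. The Cbs window holds CACGTG at -229, a motif in 6.02% of windows. The Bhmt2 window holds CACCCCAC at -82 on the opposite strand, where 2.58% of windows hold it. TATAAA, in 12.4% of all windows, and TGACNNNGC, in 10.2%, were found in no member's window, nor was any of the 5 motifs in the windows of Pemt (2 starts) or Shmt1. These matches are descriptions of letters, and binding was not measured.

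The first step of the cycle, synthesis of S-adenosylmethionine, is catalyzed in adult liver by the product of Mat1a (chr14:41105033-41124428, mm10). Mat1a was at 3817 CPM in the lowest control liver, 4417 CPM at the median and 6221 CPM in the highest, and at 4149, 4432 and 4776 CPM with BIBB-515. All BIBB-515 livers lay inside the control range, whose top was set by control replicates 1 and 2 (6177 and 6221 CPM). The fold change was 0.912 (95% interval 0.759 to 1.10, FDR 0.514 in edgeR). Mat2a, which encodes the form of the enzyme typical of other tissues, had a median of 94.5 CPM in the control livers and 102 CPM with BIBB-515 (FDR 0.135 in edgeR). The ratio of Mat1a to Mat2a was 40.4 to 72.8 in the control libraries and 38.4 to 46.2 with BIBB-515, a difference of -0.27 on the log2 scale (exact permutation test, p = 0.0866, 0.104 after adjustment over 6 ratios). The adjusted exact p was 0.0422 without control replicate 4 or 6.

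Gnmt (chr17:46725664-46729165) encodes glycine N-methyltransferase, an abundant hepatic enzyme that makes sarcosine and disposes of surplus S-adenosylmethionine. Its values were 1279 CPM at the lowest, 1700 CPM at the median and 2064 CPM at the highest of the control livers. With BIBB-515 they were 1844, 2173 and 2832 CPM. In 5 of 6 BIBB-515 livers Gnmt exceeded every control liver, and replicate 8 fell inside the control range. The log2 fold change was 0.44 ± 0.13 (SE, n = 6 per group, FDR 0.0403 in edgeR), or 1.36-fold with a 95% interval of 1.12 to 1.66, and the two-sided exact permutation test gave p = 0.00866. The edgeR FDR was 0.0702, 0.0575 and 0.0729 without control replicate 4, 5 or 6. Without BIBB-515 replicate 6, 7, 9, 10 or 11 it was 0.0735, 0.0588, 0.0590, 0.0668 or 0.0910. All 6 exons of Gnmt carried a similar increase, from 0.41 to 0.52 in log2 ratio of the group means.

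Pemt (chr11:59970614-60046489) encodes the enzyme that methylates phosphatidylethanolamine to phosphatidylcholine, a large consumer of methyl groups in liver. It was at 363, 451 and 468 CPM (lowest, median, highest) in the control livers and 391, 411 and 462 CPM with BIBB-515. The ranges lay inside each other, and the fold change was 0.966 (95% interval 0.863 to 1.08, FDR 0.701 in edgeR). Of the alternative first exons of Pemt, that at chr11:60036822-60037005 held means of 30.4 CPM in the control livers and 28.2 CPM with BIBB-515. The first exon farthest upstream held 0.725 and 0.920 CPM, and that at chr11:60040105-60040188 held 0 and 0.0240 CPM. The same first exon thus led in both groups. The ratio of Pemt to Pcyt1a, which encodes the enzyme controlling the alternative CDP-choline route, was 3.72 to 7.24 in the control libraries and 3.99 to 5.06 with BIBB-515 (log2 difference -0.21, exact permutation p = 0.175, also 0.175 after adjustment), with an adjusted exact p of 0.0286 without control replicate 1.

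Ahcy (chr2:155059312-155074497) encodes the hydrolase that splits S-adenosylhomocysteine into homocysteine and adenosine. The control livers ranged from 416 to 791 CPM with a median of 588 CPM, and the BIBB-515 livers from 644 to 748 CPM with a median of 706 CPM. All 6 BIBB-515 livers lay above the control median but none exceeded the highest control liver. The fold change was 1.19 (95% interval 0.957 to 1.48, FDR 0.276 in edgeR, exact permutation p = 0.141). Without control replicate 1, the highest control liver, the exact p was 0.0281 and the edgeR FDR was 0.115.

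Bhmt (chr13:93616891-93637758) encodes betaine-homocysteine methyltransferase, which remakes methionine with betaine as the donor and is highly expressed in liver. Its values were 1124, 1504 and 2371 CPM in the control livers and 1962, 2269 and 2592 CPM with BIBB-515 (lowest, median, highest). Control replicate 1, at 2371 CPM, was the only control liver inside the BIBB-515 range, and the other 5 controls lay below every BIBB-515 liver. The log2 fold change was 0.53 ± 0.16 (SE, n = 6 per group, FDR 0.0382 in edgeR), or 1.44-fold with a 95% interval of 1.14 to 1.82, and the exact permutation p was 0.0108. The edgeR FDR was 0.0603, 0.0578, 0.0567 and 0.0649 without control replicate 2, 3, 4 or 6, and 0.0731, 0.0689, 0.0594 and 0.0810 without BIBB-515 replicate 6, 7, 9 or 11.

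Bhmt2 (chr13:93656097-93674302), a neighboring paralog whose product uses S-methylmethionine as the donor, was at 240, 251 and 320 CPM in the control livers and 279, 287 and 308 CPM with BIBB-515. Each BIBB-515 liver exceeded 5 of the 6 control livers, and control replicate 1 exceeded all BIBB-515 livers. The fold change was 1.11 (95% interval 0.990 to 1.24, FDR 0.208 in edgeR, exact permutation p = 0.0541). Without control replicate 1 the edgeR FDR was 0.0336, with a log2 fold change of 0.21. The ratio of Bhmt to Bhmt2 was 4.62 to 7.40 in the control libraries (median 6.24) and 6.81 to 8.69 with BIBB-515 (median 7.91). The log2 difference in group means of this ratio was 0.41 (exact permutation p = 0.00649, 0.0130 after adjustment over 6 ratios). The ranges overlapped, and 4 of 6 BIBB-515 libraries exceeded every control library. Mtr, the methionine synthase that uses folate, was near 6 CPM in both groups (medians 5.90 and 5.95 CPM, FDR 0.763 in edgeR). The ratio of Bhmt to Mtr was 147 to 348 and 300 to 417, which did not pass after adjustment (exact permutation p = 0.0584, adjusted 0.0877). Without control replicate 1 or 5 the adjusted exact p was 0.0162 or 0.0455.

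Counts of Ahcy and Bhmt carry a limit from shared sequence. Of the 50-base words of the GENCODE transcript of Ahcy, 77.0% also occur in transcripts of other genes, above all in Gm4737. None of those genes is in the count tables. For Bhmt the share was 61.5%, above all with Gm5096 and Bhmt-ps1. Of its 37 sharing genes, 27 are in the count tables. The share was 6.29% for Bhmt2, 4.81% for Shmt1 and 0 for Mat1a, Gnmt, Cbs, Cth and Pemt. In Bhmt, exon 7 of the transcript held 7.34 CPM per kilobase in the control livers and exon 1 held 15.6. Exons 2 to 5 held 953 to 1890. In Ahcy, exons 1 to 3 held 1.58 to 86.0 CPM per kilobase, where exon 7 held 1757. Every word of Bhmt exon 7 and of Ahcy exons 2 and 3 was shared, but so was every word of Bhmt exons 3 and 4, so sharing of 50-base words alone did not separate low exons from high ones. The log2 ratio between groups was 0.49 to 0.61 in exons 2 to 8 of Bhmt and 0.08 in exon 1. Both exon 1, at 4.62 CPM in the control livers, and exon 7, at 1.68 CPM, were thinly covered. In Ahcy it was between 0.05 and 0.38 in all 10 exons. The thinly covered exons 2 and 3 of Ahcy had the highest ratio, 0.38 each, and exon 10 had 0.20. The part of shared sequence in the levels and fold changes of both genes was not tested.

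**Figure D2:**
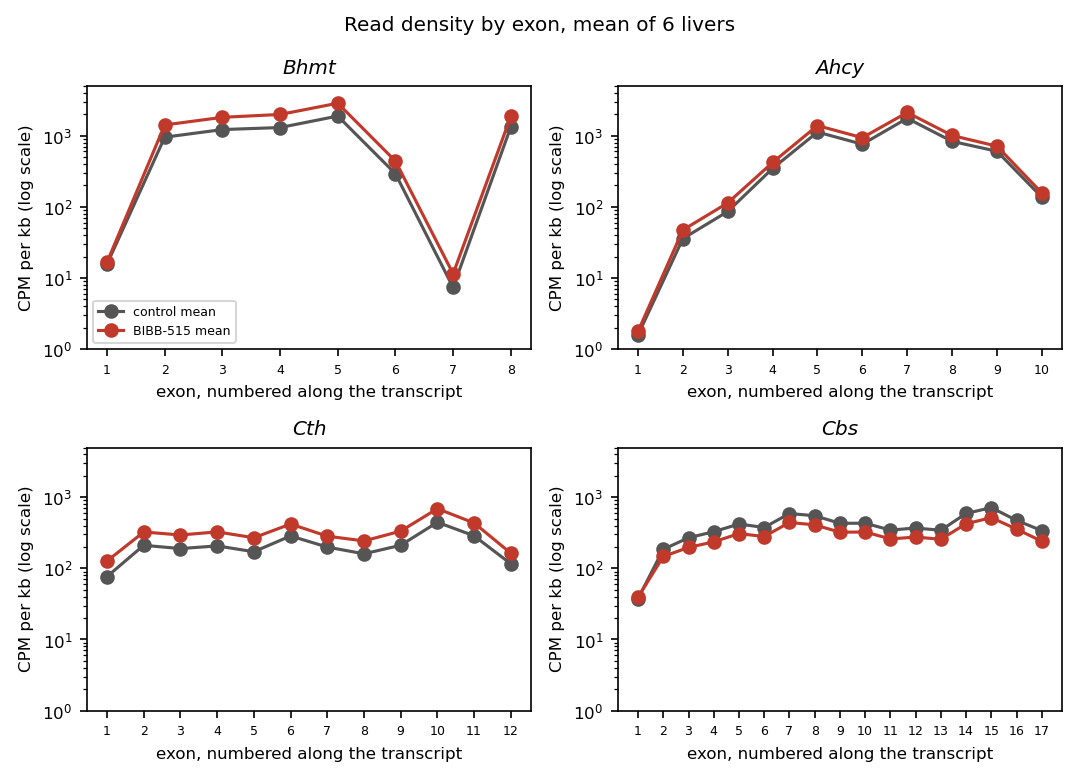
Mean CPM per kilobase of the 6 control and 6 BIBB-515 livers (log scale) is drawn for each exon, numbered from the start of the transcript, in Bhmt, Ahcy, Cth and Cbs. In the control livers exons 1 and 7 of Bhmt were at 15.6 and 7.34. These exons and exons 1 to 3 of Ahcy lie far below their neighbors in both groups. Cth and Cbs have no such gap beyond a low first exon.

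Cbs (chr17:31612623-31637205) encodes cystathionine beta-synthase, which joins homocysteine to serine and commits it to transsulfuration. The control livers were at 595, 511, 474, 521, 728 and 673 CPM (replicates 1 to 6) and the BIBB-515 livers at 463, 393, 382, 447, 404 and 472 CPM (replicates 6 to 11). The highest BIBB-515 liver, at 472.1 CPM, lay just below the lowest control liver, at 474.0 CPM, so the groups were apart by a narrow gap. The log2 fold change was -0.45 ± 0.11 (SE, n = 6 per group, FDR 0.0128 in edgeR), or 0.731-fold with a 95% interval of 0.624 to 0.857. The exact permutation p was 0.00216, the smallest that 6 against 6 livers can give. With upper-quartile size factors or with the primary-alignment tables the exact permutation p was 0.00433. That is above the smallest possible, so the groups were not fully apart under those settings. Without any single library the edgeR FDR of Cbs stayed between 0.00531 and 0.0327. The decrease ran through the gene, with log2 ratios of -0.33 to -0.50 in exons 2 to 17, and a ratio of 0.06 in exon 1, which held 4.61 CPM in the control livers.

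Cth (chr3:157894248-157925063) encodes cystathionine gamma-lyase, which releases cysteine in the next step. The control livers were at 292, 210, 139, 143, 227 and 155 CPM (replicates 1 to 6) and the BIBB-515 livers at 336, 290, 276, 265, 269 and 305 CPM (replicates 6 to 11). Control replicate 1 lay within the BIBB-515 range, and the other 5 controls lay below every BIBB-515 liver. The log2 fold change was 0.58 ± 0.16 (SE, n = 6 per group, FDR 0.0286 in edgeR), or 1.49-fold with a 95% interval of 1.18 to 1.90, and the exact permutation p was 0.0108. The edgeR FDR was 0.0536 without control replicate 6, and 0.0607 and 0.0568 without BIBB-515 replicate 6 or 11. All 12 exons were higher with BIBB-515, by 0.49 to 0.71 in log2 ratio.

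Transcripts of the 2 steps of transsulfuration thus differed in opposite directions, and their ratio is given for each library. The ratio of Cth to Cbs was 0.231 to 0.491 in the control libraries (median 0.302) and 0.594 to 0.737 with BIBB-515 (median 0.693). Every BIBB-515 library was above every control library. The log2 difference was 1.07, a 2.10-fold change of the ratio (exact permutation p = 0.00216, the smallest possible, 0.00649 after adjustment over 6 ratios). A ratio within a library does not depend on the scaling between libraries. This ratio combines the rise of Cth and the fall of Cbs given above, and is not separate evidence for them.

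Shmt1 (chr11:60788897-60811265) encodes the cytosolic serine hydroxymethyltransferase, which moves a carbon from serine to folate. It was at 209, 219 and 281 CPM in the control livers and 206, 216 and 231 CPM with BIBB-515, and the ranges overlapped. The fold change was 0.950 (95% interval 0.849 to 1.06, FDR 0.553 in edgeR). Shmt2, the mitochondrial form, was at 199, 230 and 235 CPM in the control livers and 293, 301 and 318 CPM with BIBB-515, with no overlap. It rose by 0.43 ± 0.06 on the log2 scale (SE, n = 6 per group, FDR 0.000310 in edgeR). The ratio of Shmt1 to Shmt2 was 0.909 to 1.19 in the control libraries and 0.682 to 0.743 with BIBB-515, without overlap (log2 difference -0.49, exact permutation p = 0.00216, 0.00649 after adjustment).

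**Figure D3:**
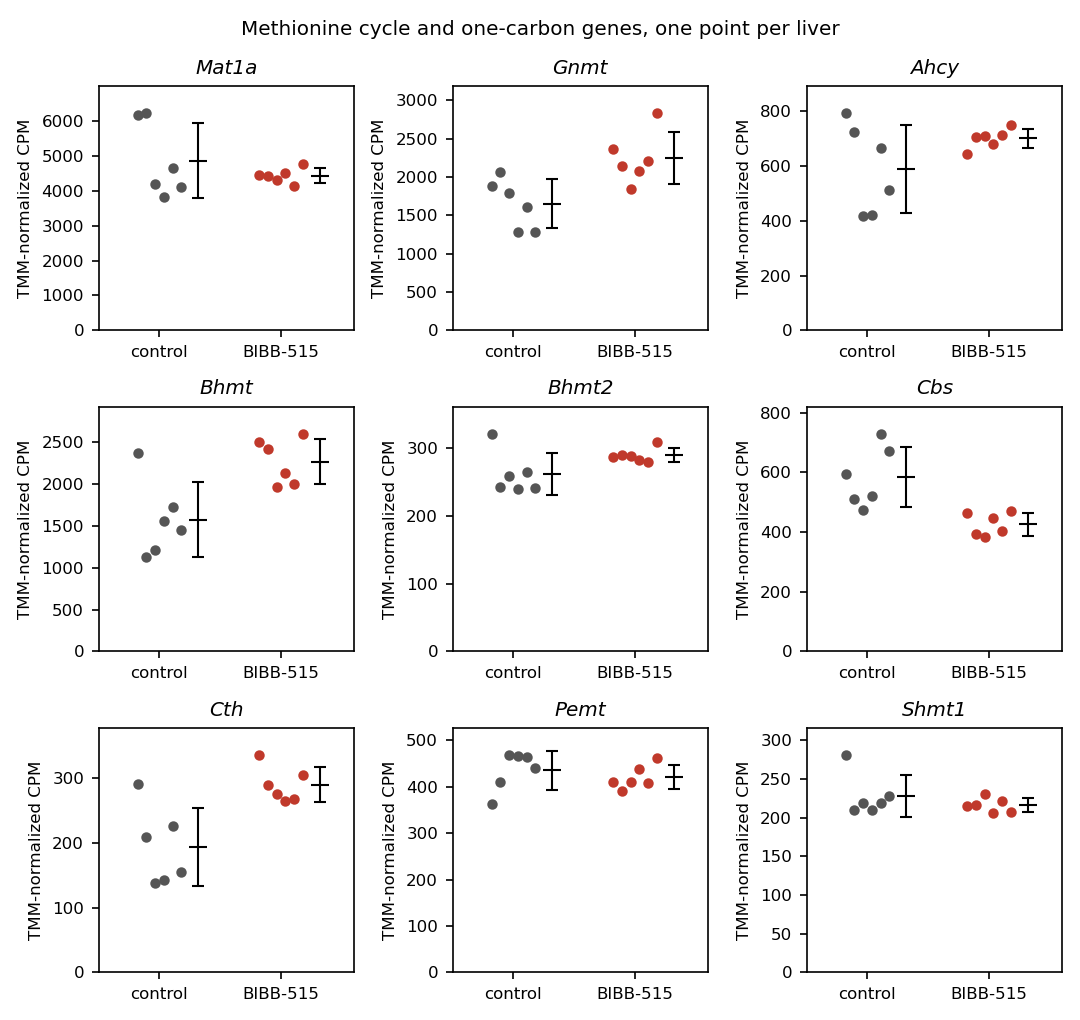
Each point is the TMM-normalized CPM of 1 liver, with 6 control (gray) and 6 BIBB-515 (red) livers per gene in order of replicate number, and bars are mean and SD. Cbs is the gene without overlap between groups under this normalization. In Bhmt and Cth a single control liver, replicate 1, reaches the BIBB-515 range.

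**Figure D4:**
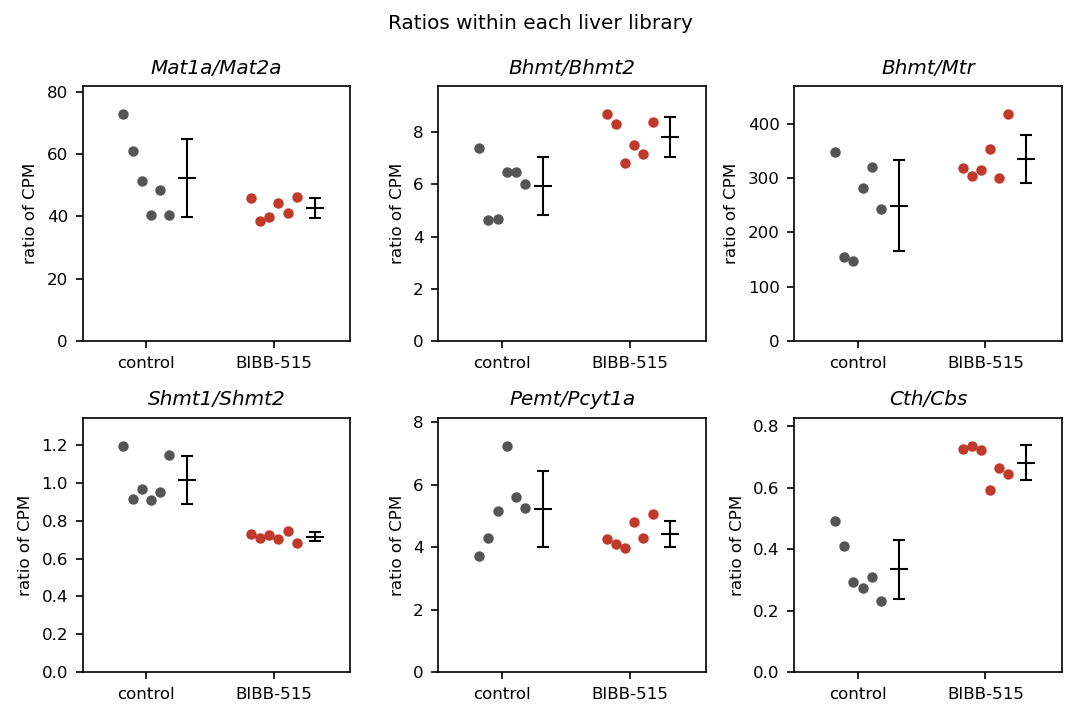
Points are ratios of CPM of 2 genes within each library, 6 control (gray) and 6 BIBB-515 (red), with mean and SD as bars and axes starting at 0. The ratios Cth/Cbs (0.231 to 0.491 against 0.594 to 0.737) and Shmt1/Shmt2 (0.909 to 1.19 against 0.682 to 0.743) do not overlap between the groups.

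The 9 genes varied less among the BIBB-515 livers than among the control livers. The coefficient of variation was lower with BIBB-515 in 9 of 9 genes, and it was lower in 77.8% of all tested genes, a pattern common to most of them. In Ahcy it was 27.4% in the control livers and 4.96% with BIBB-515, and in Mat1a 22.0% and 4.71%. Control replicate 1 held the highest control value in 5 of the 9 genes, although it was lowest for Pemt. BIBB-515 replicate 11 held the highest value of its group in 7 genes. Together the 9 genes took 0.874 to 1.29% of the counts of a control library (median 0.953%) and 1.06 to 1.26% with BIBB-515 (median 1.15%).

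Per kilobase of the gene model, the order of mean levels in the control livers was Gnmt (1601 CPM per kilobase), Mat1a (1394), Bhmt (759), Pemt (352), Cbs (233), Ahcy (231), Bhmt2 (125), Shmt1 (110) and Cth (108). Cbs and Ahcy were not distinguished in this order, nor were Shmt1 and Cth, since Cbs exceeded Ahcy in 4 of 6 control livers and Shmt1 exceeded Cth in 3 of 6. The ranges of Gnmt and Mat1a, of Mat1a and Bhmt, and of Bhmt2 and Shmt1 also overlapped, although the first of each pair was higher in all 6 control livers. With BIBB-515, Gnmt was at 2176 CPM per kilobase and Mat1a at 1272, and their ranges no longer overlapped. Ahcy, at 275, was above Cbs, at 171, in all 6 BIBB-515 livers. Cth, at 161, was above Bhmt2 (138) and Shmt1 (105) in all 6 BIBB-515 livers and was below Cbs in 3 of 6. The levels of Bhmt and Ahcy in this order carry the limit of shared sequence given above.

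The wider pathway gave 113 genes in 9 lists, of which 104 were tested. Of these, 11 rose and 2 fell, so that 12.5% were called, near the 13.7% of all tested genes. Among 8 partner enzymes, Shmt2 was the 1 gene called. Among 18 tested genes of folate metabolism and transport, 3 rose and 1 fell. Slc19a1, the reduced folate carrier, rose from 9.06 ± 1.57 to 15.0 ± 2.96 CPM (mean ± SD, n = 6, FDR 0.00346 in edgeR). Atic, which uses formyl-folate in purine synthesis, rose by 0.29 on the log2 scale (FDR 0.0318 in edgeR), as did Ftcd, of histidine breakdown, by 0.22 (FDR 0.0462 in edgeR). Ggh, which trims folate polyglutamates, decreased by 0.41 (FDR 0.00122 in edgeR) from a low control mean of 11.6 CPM, and its groups did not overlap.

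Of 8 genes of choline oxidation and betaine breakdown, Aldh7a1, whose product can oxidize betaine aldehyde to betaine, rose and the other 7 were not called. It was at 282 to 347 CPM in the control livers and 396 to 439 CPM with BIBB-515, a log2 fold change of 0.47 ± 0.07 (SE, n = 6 per group, FDR 0.000373 in edgeR). Of 12 tested genes of serine and glycine metabolism, 3 rose and none fell. Gldc, the decarboxylase of the glycine cleavage system, rose by 0.77 (FDR 0.000615 in edgeR), Gcat, which makes glycine from a product of threonine, by 0.41 (FDR 0.0184), and Srr, serine racemase, by 0.34 (FDR 0.0174). Gldc did not overlap between groups, at 133 to 211 CPM against 263 to 366 CPM.

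Of 13 tested genes of cysteine and sulfide use, 2 rose and none fell. Ethe1, the mitochondrial persulfide dioxygenase, was at 27.9 to 40.4 CPM in the control livers and 74.0 to 105 CPM with BIBB-515. Its log2 fold change was 1.39 ± 0.10 (SE, n = 6 per group, FDR 7.43e-07 in edgeR), the largest of all tested genes in these lists. Sqrdl, sulfide quinone reductase, which acts before it in sulfide oxidation, rose by 0.23 (FDR 0.0202 in edgeR). Of 13 other genes of methyl group use, As3mt, which methylates arsenic, decreased by 0.31 (FDR 0.00523 in edgeR) and the other 12 were not called. Of 9 genes of vitamin B12 handling, Tcn2, the carrier transcobalamin, rose by 0.50 (FDR 0.000184 in edgeR), from 156 to 190 CPM in the control livers to 229 to 259 CPM. None of 12 tested genes of polyamine synthesis and methionine salvage and none of 11 of phospholipid synthesis was called. List medians ran from -0.05 (phospholipid synthesis) to 0.19 (choline and betaine) in log2 fold change, beside -0.01 over all tested genes.

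**Figure D5:**
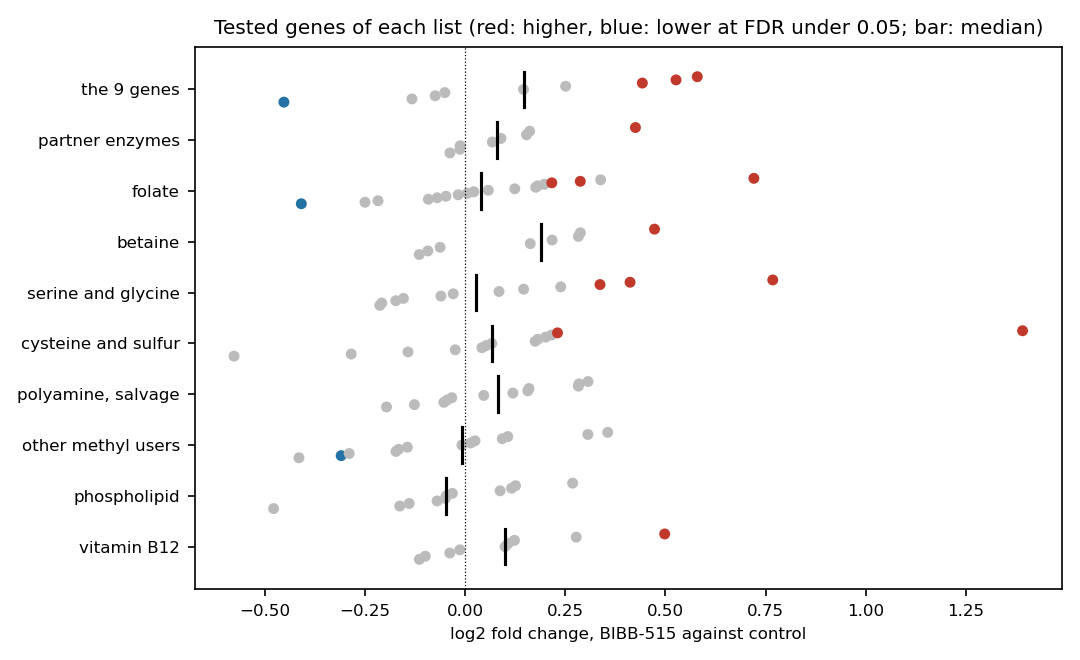
Each point is the log2 fold change of 1 tested gene, BIBB-515 against control, in rows for the 9 genes and the 9 other lists. Red marks genes higher and blue genes lower at FDR under 0.05, and the bar is the list median. Calls lie on both sides of 0 in the 9 genes (median 0.15) and the folate list (median 0.04), and Ethe1 at 1.39 is the point farthest from 0.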

How the data were processed

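RNA from 12 livers was sequenced. Per the labels and file headers, the authors aligned reads with STAR (version 2.5.3a) to mm10 and counted them with featureCounts (Subread 1.6.3) on the exons of UCSC genes, with no option for strand or for reads placed at several sites. The deposited values are raw counts per gene, and for other tables per exon or per primary alignment with a read on overlapping genes counted for each. Read length and library kit were not given in the sources used here. The control diet groups and replicate numbers come from the labels. No pair of libraries of one group agreed within sampling noise (lowest chi-square per degree of freedom 12.1), and nothing in the labels names a batch.

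Counts were fitted with edgeR 4.0.16 in R 4.3.3 (glmQLFit and glmQLFTest, TMM normalization) for genes that reached 1 CPM in 2 or more of the 12 libraries, with Benjamini-Hochberg adjustment over all tested genes, called at FDR under 0.05. The scripts were tested on simulated data with log2 changes of 1 and 2 in either direction. The called genes of the 9 changed by less, and changes of their size were not simulated. Single genes and 6 ratios within libraries, on log2(CPM + 0.5), were also compared by two-sided exact permutation over all labelings. Replicates were taken as separate mice, although the labels number samples and do not name animals. The p-values set differences between the groups against the spread between these libraries. Exon values are descriptions. Words of 50 bases were compared with GENCODE transcripts (vM21). Alternatives were DESeq2 1.42.0, limma-voom 3.58.1, 1 surrogate variable (sva 3.50.0), other size factors, other filters, the primary-alignment tables and leaving out each library. Genes were named by rule: the 9 genes, those of the ratios, at most 4 called genes of lowest p per list, Lss, and copies bearing on counts. The 9 genes and all lists were chosen with earlier results of these data known, and some genes of the wider pathway are not reported here.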

Additional observations from a re-analysis of the deposited data

Results flagged for a closer look

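Of 32 groups of 6 livers tested for a value far from the others (9 genes, 6 ratios and the total count, in each diet), 2 were marked by Dixon's criterion, which marks about 1 in 20 groups by chance. Both lay in control replicate 1. Its Shmt1 value was 281 CPM, with the next highest control liver at 228 CPM. Its Bhmt2 value was 320 CPM, with the next at 264 CPM. Without this library, the log2 fold change of Shmt1 was -0.0058 and that of Bhmt2 was 0.21, the latter with an edgeR FDR of 0.0336. The total count of this library was 26264550, inside the range of its group.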

How the results depend on the processing

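No paired analysis was possible because the groups share only replicate number 6, and nothing in the labels ties those 2 mice together. The same 4 genes of the 9 were called under DESeq2, limma-voom, RLE or upper-quartile size factors and no filter. They were also called under a filter of 1 CPM in at least 6 samples, the primary-alignment tables and 1 surrogate variable. In the primary-alignment tables the counts of the 9 genes differed by at most 2 reads per library. That setting therefore did not test the shared sequence of Bhmt and Ahcy. All tested genes past FDR 0.05 numbered 1489 to 2407 under all of these settings, against 1705. The other pathway genes past FDR 0.05 numbered 12 to 21, against 13, with 21 under 1 surrogate variable. The share of calls higher with BIBB-515 was 52.6% and stayed between 51.7% and 56.8%. The exact test of Bhmt2 gave a log2 difference of 0.158 (p = 0.0411) with upper-quartile size factors. The exact test of Cbs gave p = 0.00433 with upper-quartile size factors and with the primary-alignment tables, where its groups were not fully apart.

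Leaving out each library in turn gave 1 to 5 called genes of the 9, with Cbs called in all 12 fits. The called genes were 2 without control replicate 4 or BIBB-515 replicate 7 or 9, and 1 without control replicate 6 or BIBB-515 replicate 6 or 11. All tested genes past FDR 0.05 then numbered 1199 to 1865, and other pathway genes 11 to 18. Without 1 library, the exact-test difference ranged from 0.206 to 0.391 for Ahcy and from 0.129 to 0.213 for Bhmt2, both highest and past p = 0.05 without control replicate 1. The log2 ratio difference ranged from -0.338 to -0.168 for Mat1a to Mat2a (past adjusted p = 0.05 without control replicate 4 or 6), from 0.356 to 0.606 for Bhmt to Mtr (without control replicate 1 or 5) and from -0.302 to -0.110 for Pemt to Pcyt1a (without control replicate 1). The other 7 exact tests and 3 ratios kept their side of the threshold. No fold change or exact-test difference of the 9 genes and no difference of the 6 ratios changed sign under the settings run for it, and the fold changes of other named genes, markers and exons were not compared under them. The lowest count of any of the 9 genes in a library was 3169 (Cth), and the effect of depth on the calls was not tested.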
